A study of Mus musculus with 26 samples.

Results

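Genes for 10 neuropeptide precursors were followed across 13 sorted neuron subtypes of the mouse retina. They are Npy, Pnoc, Penk, Crh, Tac1, Cartpt, Gal, Vip, Sst and Cck, 10 of the 18193 genes with a probe set of a single symbol on the arrays. The genes were taken by symbol, and each was read from its brightest probe set, the one with the highest mean over the 26 arrays. Only Tac1 had a second probe set, so 11 probe sets stood for the 10 genes.

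Neuropeptides are cut from larger precursor proteins in the secretory pathway, stored in dense-core vesicles and released alongside fast transmitters. They act on G protein-coupled receptors over longer distances and times than glutamate, GABA or glycine. In the retina they are best known from amacrine cells, where single peptides mark small populations, and some ganglion cells also carry them.

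All mice were at postnatal day 6, and each subtype was collected as 2 biological replicates from different litters. The 6 ganglion cell subtypes, the output neurons of the retina, were all sorted as Thy1+. BD, J, W3 and W7 ganglion cells carried YFP and Isl2+ ganglion cells carried bgal, all on C57BL/6. Cdh3 BAC ganglion cells carried GFP, with strain labels of Swiss Webster x C57BL/7 for replicate 1 and Swiss Webster x C57BL/8 for replicate 2. The bipolar sorts, of the relay neurons that photoreceptors drive, were ON bipolar cells (GFP+, C57BL/6) and MP-positive bipolars (CFP+VC1.1–, mixed C57BL/6 x CD1). The 5 amacrine subtypes, interneurons of the inner retina, were starburst (Kusabira Orange+Thy1–, C57BL/6), MP-positive (CFP+VC1.1+, mixed C57BL/6 x CD1), AII (GFP+, Swiss Webster x C57BL/6), J glycinergic (YFP+, C57BL/6) and PaxCre GABAergic (GFP+, C57BL/6). A sort by a reporter holds every cell the reporter labels, so a subtype can be a mixture, and how many animals went into each sort is not given in the sources used here. Fewer cells of a type in a sort and less RNA per cell cannot be told apart in these samples.

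Levels are given as log2(intensity + 16) after quantile normalization, on which the median of all values was 6.14 and the lowest values lay near 4.06. The deposited columns of the 12 ganglion cell arrays were brighter, with medians of 61.52 to 74.75, than those of the 14 other arrays, with medians of 37.41 to 47.13. That scale set cannot be told apart from the ganglion cell class. All 7 measured ganglion cell markers lay above the median on every ganglion cell array, and 2 to 5 of 7 did so on amacrine arrays and 1 to 5 on bipolar arrays. All 6 measured bipolar markers were above it on every bipolar array, against 3 to 5 of 6 on amacrine arrays. Amacrine markers were above it for 2 to 6 of 8 on ganglion cell arrays and 6 to 8 of 8 on amacrine arrays. Their highest summed intensity on a ganglion cell array was 5096, in J replicate 1, against 2506 in J replicate 2. The part of amacrine cells in the J ganglion values was not tested. The MP amacrine sort had the lowest summed intensity of the amacrine markers in its class (5333 and 5746) and the highest of the bipolar markers (7626 and 8291). It also had 11794 and 7592 for rod markers, against 809 to 3342 on the other amacrine arrays, and 7 and 8 of the 8 amacrine markers lay above the median.

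A gene was tested where at least 2 of 26 arrays exceeded the median, which 13951 genes did. Calls required a limma p, adjusted by Benjamini-Hochberg over all genes tested, below 0.05 and a change of 1 log2 unit or more. Differences are given as first group minus second with their standard error. Npy, Pnoc, Penk, Crh, Tac1, Cartpt, Gal and Vip passed the filter, and Sst and Cck did not. All 8 tested precursors differed across the 13 subtypes by limma's F test, where 71.3% of all genes tested did. Pnoc exceeded the median on 4 arrays, all of starburst or Cdh3 cells, and Penk on the 12 ganglion cell arrays, so such genes passed the filter through the group in which they were bright, and the count is a description. Their ranges of subtype means were 7.26 for Npy, 7.05 for Crh, 7.01 for Tac1, 6.46 for Cartpt, 5.65 for Pnoc, 4.79 for Gal, 3.32 for Penk and 1.75 for Vip. The median range of the 8 was 6.05, beside 1.58 over all genes tested. Genes with a range wider than that of Npy made up 0.186% of those tested, and 0.251% had a wider one than Tac1, against 43.7% for Vip.

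**Figure D1:**
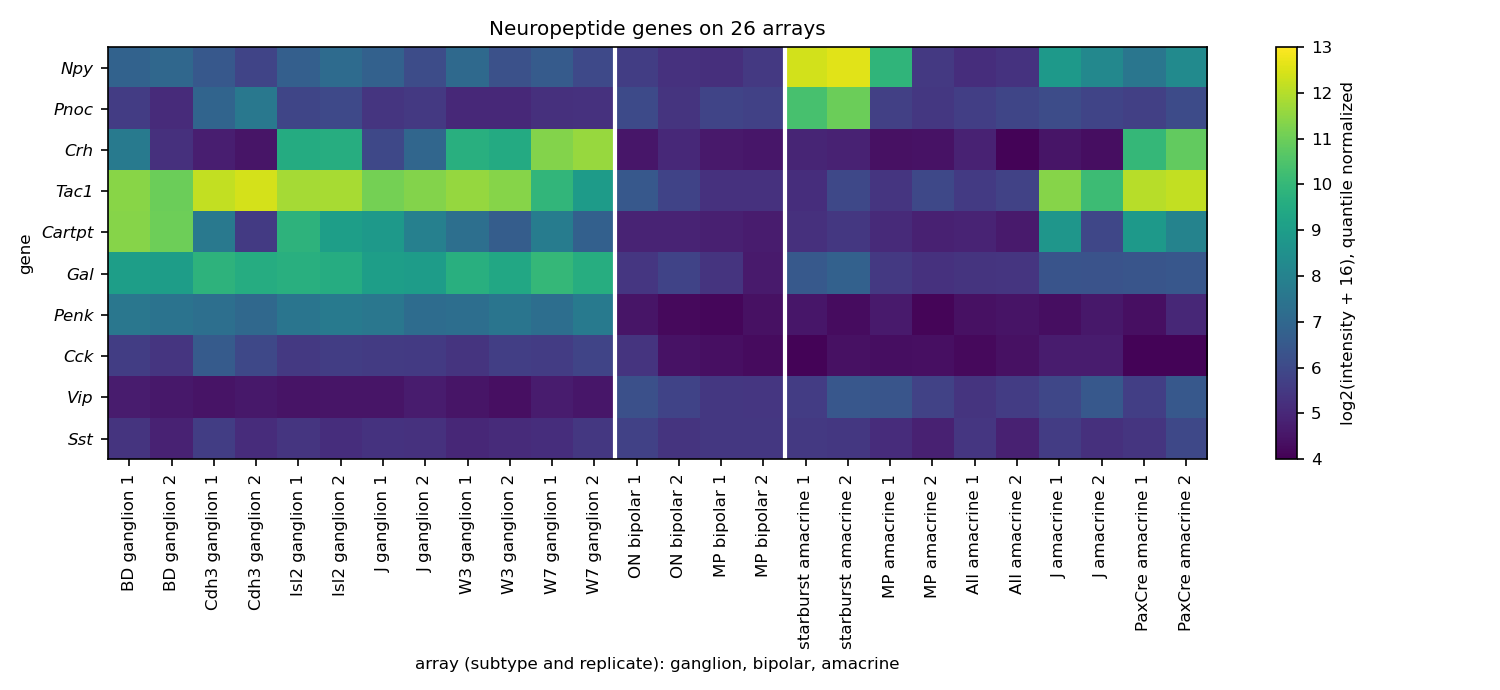
Heat map of the 10 precursor genes (rows) on 26 arrays (columns, subtype and replicate), coloured by log2(intensity + 16) after quantile normalization. White lines part the 12 ganglion cell, 4 bipolar and 10 amacrine arrays. The brightest cells of Npy and Pnoc lie in the starburst columns, Gal and Penk change at the ganglion cell border, and Sst has no bright column.

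The upstream sequences of 5 precursors are shown because they stand for the patterns described here: Cartpt graded among ganglion cells, Sst low everywhere, Tac1 shared by ganglion cells and 2 amacrine subtypes, Npy brightest in starburst cells, and Gal brightest in all ganglion cell subtypes. Each run is the 250 bases before the gene's start, 5′ to 3′ on the gene's strand, from RefSeq with build GRCm38.p6. The windows are chr13:99900684-99900933 for Cartpt (minus strand), chr16:23890845-23891094 for Sst (minus), chr6:7554811-7555060 for Tac1 (plus), chr6:49822460-49822709 for Npy (plus) and chr19:3414545-3414794 for Gal (minus). Capitals mark matches on either strand to the cAMP response element TGACGTCA, to its shorter core TGACG or CGTCA, which lies inside the full element, and to the E-box CACGTG.
Cartpt: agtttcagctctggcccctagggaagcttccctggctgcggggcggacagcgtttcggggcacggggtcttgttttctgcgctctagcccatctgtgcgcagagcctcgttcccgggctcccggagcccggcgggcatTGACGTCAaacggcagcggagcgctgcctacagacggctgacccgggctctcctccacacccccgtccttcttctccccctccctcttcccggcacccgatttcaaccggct
Sst: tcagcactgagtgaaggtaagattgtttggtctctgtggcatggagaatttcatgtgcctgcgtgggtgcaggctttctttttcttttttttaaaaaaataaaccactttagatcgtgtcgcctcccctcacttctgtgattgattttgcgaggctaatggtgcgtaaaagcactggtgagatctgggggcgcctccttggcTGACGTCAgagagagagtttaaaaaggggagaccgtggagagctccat
Tac1: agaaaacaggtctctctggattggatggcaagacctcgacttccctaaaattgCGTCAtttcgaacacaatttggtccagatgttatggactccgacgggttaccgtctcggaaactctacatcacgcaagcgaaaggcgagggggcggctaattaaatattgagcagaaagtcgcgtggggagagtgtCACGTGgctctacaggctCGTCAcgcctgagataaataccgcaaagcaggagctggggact
Npy: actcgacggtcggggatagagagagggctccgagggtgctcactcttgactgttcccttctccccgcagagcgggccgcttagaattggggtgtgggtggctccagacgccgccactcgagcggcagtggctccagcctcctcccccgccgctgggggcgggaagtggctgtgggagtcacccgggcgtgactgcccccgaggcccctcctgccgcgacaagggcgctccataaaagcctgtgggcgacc
Gal: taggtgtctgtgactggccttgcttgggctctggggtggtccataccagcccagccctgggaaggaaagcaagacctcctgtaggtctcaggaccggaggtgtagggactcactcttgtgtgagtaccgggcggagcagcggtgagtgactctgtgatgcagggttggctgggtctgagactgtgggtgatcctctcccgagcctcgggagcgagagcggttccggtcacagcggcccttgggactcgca
The full element was found in Cartpt, at bases -112 to -105 before the start, and in Sst, at -48 to -41. It occurred in 1.55% of all 32851 promoter windows. Tac1 held a core at -197 to -193, another at -43 to -39, and the E-box at -61 to -56. The core occurred in 17.8% of windows and the E-box in 6.02%. TATAAA, searched as well and found in 12.4% of windows, was in none of the 5 shown and occurred 3 times in Vip. Windows were at hand for 7 of the 10 precursors, and 5 of the 7 held the core. These matches describe letters only: Cartpt and Sst share the full element and had unlike levels.

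Npy encodes neuropeptide Y, a widespread inhibitory peptide of the brain and of amacrine cells. Its level was 12.40 and 12.60 in starburst cells, the cholinergic amacrine cells, against 5.17, 7.87 and 9.89 (lowest, median and highest) on the 8 arrays of the other 4 amacrine subtypes. Both starburst arrays lay above every other array of the series. The difference was 5.16 ± 0.65, 35.6-fold on this scale (limma adjusted p = 8.53e-06). J amacrine cells had 8.86 and 8.21 and PaxCre amacrine cells had 7.53 and 8.31. These overlapped with each other and lay above all ganglion cell arrays, which had 5.86, 6.65 and 7.15. AII cells were the lowest subtype of all, at 5.17 and 5.31, and differed from the other amacrine subtypes by -3.92 ± 0.65 (adjusted p = 0.00014). The bipolar arrays had 5.20 to 5.63 and overlapped with AII.

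The replicates of MP amacrine cells disagreed for Npy, with 9.89 in replicate 1 and 5.48 in replicate 2 (SD 3.12), so their mean of 7.68 describes neither. The median SD of Npy over the subtypes was 0.42. Beside this, the 6 starburst markers summed to 1646 in replicate 1 and 1840 in replicate 2, against 17074 and 17030 in the starburst arrays. Ganglion cell markers summed to 4461 in replicate 1 and 2244 in replicate 2. The part of other cells in the disagreement was not tested. No ganglion cell subtype was called for Npy, where the 6 subtype means spanned 0.76.

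Pnoc encodes prepronociceptin, the precursor of nociceptin, an opioid-like peptide. It had 10.38 and 10.99 in starburst cells, against 5.47, 5.78 and 6.09 on the 8 other amacrine arrays. The groups were far apart, and the difference of 4.88 ± 0.21 amounted to 29.5-fold (limma adjusted p = 8.95e-12). Among ganglion cells, Cdh3 cells had 6.91 and 7.62, against 5.02, 5.34 and 6.00 on the 10 arrays of the other 5 subtypes. Cdh3 thus lay above all other ganglion cell arrays, by 1.85 ± 0.21 or 3.60-fold (adjusted p = 1.96e-05). The 11 remaining subtypes had no array above the median of 6.14. Npy and Pnoc correlated at r = 0.79 over the 13 subtype means, a description in which the starburst point is the brightest of both genes.

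Crh encodes corticotropin-releasing hormone, the hypothalamic trigger of the stress axis. Among ganglion cells it had 11.33 and 11.60 in W7, against 4.53, 7.33 and 9.68 on the 10 other ganglion cell arrays. W7 was above each of them, with a difference of 4.12 ± 0.40 or 17.4-fold (limma adjusted p = 1.11e-05). W3 cells had 9.68 and 9.51 and Isl2 cells had 9.53 and 9.60, and these overlapped. W3 was called higher, by 1.87 ± 0.40 (adjusted p = 0.0241), and Isl2 was not, at 1.84 ± 0.40 (adjusted p = 0.0763). These differences were of like size, and Isl2 was called with a pseudocount of 64 and with array weights. The W3 call was lost when either of its own replicates was left out, and with a pseudocount of 1.

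Crh in Cdh3 ganglion cells was 4.75 and 4.53, against 5.26, 9.52 and 11.60 in the other ganglion cells. Cdh3 lay below every other ganglion cell array, with a difference of -4.07 ± 0.40 (adjusted p = 4.18e-06), at a level close to that of the bipolar arrays. It was -5.27 with a pseudocount of 1 and -2.84 with 64. J ganglion cells, at 5.96 and 6.98, differed by -1.88 ± 0.40 (adjusted p = 0.0142), a call lost without either J replicate. BD cells disagreed, with 7.68 in replicate 1 and 5.26 in replicate 2. Their call against the others, -1.88 ± 0.40 (adjusted p = 0.0327), was lost in 8 of 37 other settings, one of them leaving out replicate 2. The vessel markers beside it summed to 4272 in BD replicate 1 and 592 in replicate 2, and microglia markers to 8063 and 5885. Of the vessel markers, Rgs5 had 11.975 and 8.393, and Kdr had 7.392 and 7.726. The part of vessel cells and microglia was not tested.

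Outside the ganglion cells, Crh was bright in PaxCre amacrine cells alone. They had 10.0002 and 10.85, against 4.09, 4.48 and 4.92 on the 8 other amacrine arrays. The groups were far apart, with a difference of 5.87 ± 0.41 (adjusted p = 1.5e-08). With the other arrays near the lowest values, its size moved with the pseudocount, to 7.51 with a pseudocount of 1 and 4.31 with 64. The 4 bipolar arrays had 4.53 to 5.03. Ganglion cell markers in the PaxCre sort summed to 4079 and 3773, against 25186 to 32658 in ganglion cells. Of the 7 markers, Rbpms, Pou4f1, Slc17a6, Sncg and Thy1 had 4.10 to 6.42 in PaxCre cells, against 10.34 to 13.05 in ganglion cells. The neurofilament genes Nefl (10.76 and 10.75) and Nefm (11.10 and 10.92) were brighter there than on any other amacrine array, against 12.18 to 13.07 in ganglion cells. The part of ganglion cell RNA in the PaxCre values was not tested.

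Tac1 encodes the precursor of substance P and neurokinin A, the tachykinins that act on Tacr1 and related receptors. All 12 ganglion cell arrays were bright, with 8.93, 11.39 and 12.42. Cdh3 cells led with 12.18 and 12.42, against 8.93, 11.35 and 11.81 in the other ganglion cells. Cdh3 was above all of them by 1.28 ± 0.29 (limma adjusted p = 0.0138), a call lost when either Cdh3 replicate was left out, with a pseudocount of 1 and with the median over both probe sets (0.62). W7 cells had 9.91 and 8.93, against 10.98, 11.49 and 12.42 in the other ganglion cells. They lay below all of these, with a difference of -2.18 ± 0.29 (adjusted p = 0.000224).

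Amacrine cells were split for Tac1. PaxCre cells had 12.05 and 12.18 and J cells had 11.37 and 10.18. The arrays of starburst, MP and AII cells lay between 5.18 and 5.96, with no array in between. PaxCre was higher than the other amacrine subtypes by 5.20 ± 0.29, 36.9-fold (adjusted p = 1.39e-09), and J by 3.52 ± 0.29, 11.49-fold (adjusted p = 3e-07). Starburst, MP and AII cells were each called lower, with differences of -2.98 ± 0.29, -2.86 ± 0.29 and -2.89 ± 0.29 in that order. The second Tac1 probe set had 5.03 to 5.94 on ganglion cell arrays, 5.25 to 5.38 on bipolar arrays and 4.73 to 5.70 on amacrine arrays. It exceeded the median on 0 of 26 arrays and did not follow the first, so the Tac1 results rest on a single probe set.

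**Figure D2:**
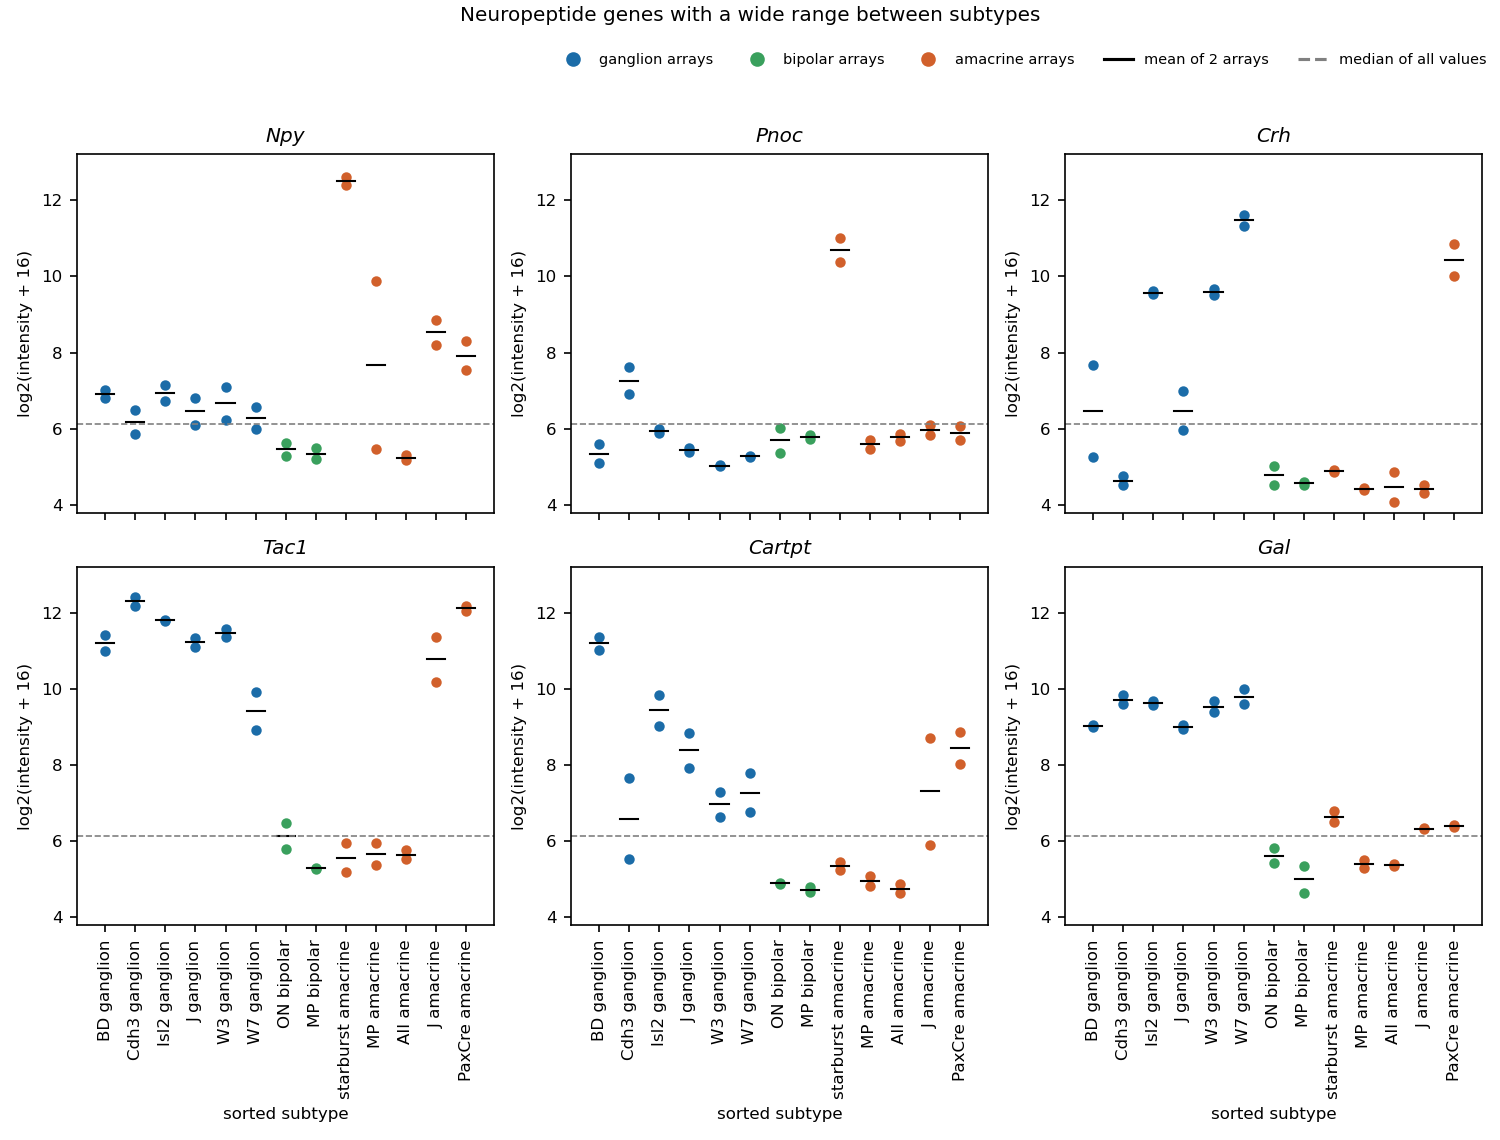
Levels of 6 precursor genes in each array (points) by sorted subtype, on log2(intensity + 16), with the mean of 2 arrays (bar) and the median of all values (dashed line, 6.14). Starburst cells stand at 12.40 and 12.60 for Npy and at 10.38 and 10.99 for Pnoc, and W7 and PaxCre cells lead Crh.

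Cartpt encodes the CART prepropeptide, a marker of ON-OFF direction-selective ganglion cells in the mouse retina. It had 11.37 and 11.01 in BD cells, labelled as having bistratified dendrites, against 5.54, 7.72 and 9.83 on the other 10 ganglion cell arrays. BD lay above all of them, by 3.46 ± 0.54 or 11.01-fold (limma adjusted p = 0.00315). Without BD replicate 2 or with array weights the call was lost, and over all settings the adjusted p lay between 0.000185 and 0.104. Isl2 cells followed with 9.83 and 9.04, then J ganglion cells with 8.84 and 7.93. W7 cells had 7.79 and 6.76 and W3 cells had 7.28 and 6.65, and these overlapped.

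Cdh3 ganglion cells had 7.65 in replicate 1 and 5.54 in replicate 2 for Cartpt. Their call against the other ganglion cells, -2.06 ± 0.54 (adjusted p = 0.0408), was lost in 18 of 37 other settings. Beside it, the 7 microglia markers summed to 10431 in replicate 1 and 733 in replicate 2, and 7 of 7 in replicate 1 and 4 of 7 in replicate 2 exceeded the median. Rod markers summed to 1511 and 224. The part of these cells was not tested.

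In amacrine cells Cartpt had 8.86 and 8.04 in PaxCre, against 4.64, 5.17 and 8.71 on the 8 other arrays. The groups overlapped through J replicate 1, and the difference was 2.86 ± 0.55 or 7.24-fold (adjusted p = 0.00142). Leaving out PaxCre replicate 1 ended that call (adjusted p = 0.0595), the lowest adjusted p of any setting being 3.53e-05. J amacrine cells disagreed, with 8.71 in replicate 1 and 5.90 in replicate 2, and were not called (1.43 ± 0.55, adjusted p = 0.0909). Ganglion cell markers summed to 2746 in J replicate 1 and 3868 in replicate 2, and their part in the disagreement was not tested. Bipolar arrays had 4.68 to 4.91.

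Gal encodes galanin, an inhibitory peptide that acts on Galr1 to Galr3. It had 8.96, 9.59 and 9.98 on the 12 ganglion cell arrays, against 5.30, 6.33 and 6.79 on the 10 amacrine arrays. Every ganglion cell array lay above every other array of the series, and ganglion cells were higher than amacrine cells by 3.42 ± 0.09, 10.7-fold (limma adjusted p = 8.28e-16). Among ganglion cells the means spanned 0.79 and no subtype was called. Starburst cells, at 6.51 and 6.79, were above the 8 other amacrine arrays, which reached 6.43. That difference of 0.77 ± 0.17 had an adjusted p of 0.00275 and was under the 1 log2 unit a call needs. Gal also split the amacrine class: starburst, PaxCre and J arrays had 6.31 to 6.79, and MP and AII arrays had 5.30 to 5.51. The amacrine means spanned 1.28, beside a median of 0.92 over all genes tested. With a pseudocount of 1, Gal was called higher in starburst cells and lower in MP and AII cells.

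Penk encodes proenkephalin, the source of the enkephalins, ligands of the delta and mu opioid receptors. It had 7.03, 7.46 and 7.69 on the ganglion cell arrays, against 4.13, 4.44 and 4.9997 on the amacrine arrays. The groups did not overlap, and the difference was 2.94 ± 0.10 (adjusted p = 2.17e-14). With the amacrine arrays near the lowest values, its size moved with the pseudocount, to 4.53 with a pseudocount of 1 and 1.64 with 64. The 6 ganglion cell means spanned 0.43, less than the median span of 0.58 over all genes tested. Bipolar arrays had 4.14 to 4.50, near the lowest values of the scale. Penk and Gal correlated at r = 0.97 over the 13 subtypes, which describes the shared step between ganglion cells and the rest.

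Cck, the precursor of cholecystokinin, followed the same step at a lower level. It had 5.37, 5.62 and 6.59 on the ganglion cell arrays, against 4.09, 4.38 and 5.34 on the 14 others. All ganglion cell arrays were above all others, but narrowly. The highest other array was ON bipolar at 5.34, and the lowest ganglion cell array was W3 at 5.37. The ON bipolar replicates disagreed, with 4.43 and 5.34. Over all genes tested, 9.39% had every ganglion cell array above every other array. Only 1 array, Cdh3 replicate 1, passed the median of the series. Cck therefore failed the filter. Without a filter on dim genes the difference between ganglion and amacrine cells was 1.35 ± 0.10 (limma adjusted p = 2.14e-09).

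Vip, the precursor of vasoactive intestinal peptide, which marks an amacrine population in the adult retina, ran the other way. It had 4.39, 4.54 and 4.70 on ganglion cell arrays, against 5.34, 5.84 and 6.49 on amacrine arrays. No arrays of these groups overlapped, with a difference of -1.41 ± 0.12 (adjusted p = 8.98e-09). Bipolar arrays, at 5.41 to 6.19, overlapped with amacrine arrays. No amacrine subtype was called for Vip, and only 5 of 26 arrays exceeded the median. With a pseudocount of 64 in place of 16 the difference was -0.65 and no longer a call, and the range over subtypes was 0.81, also no call.

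Sst, the precursor of somatostatin, lay between 4.81 and 5.95 on all 26 arrays and was above the median on 0 of them. Ganglion cell arrays had 4.87, 5.22 and 5.63, against 4.81, 5.41 and 5.95 in amacrine cells. Without a filter its F test gave a limma adjusted p of 0.315 and its ganglion minus amacrine difference was -0.09 ± 0.11 (adjusted p = 0.483). No difference in Sst was detectable at this signal.

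**Figure D3:**
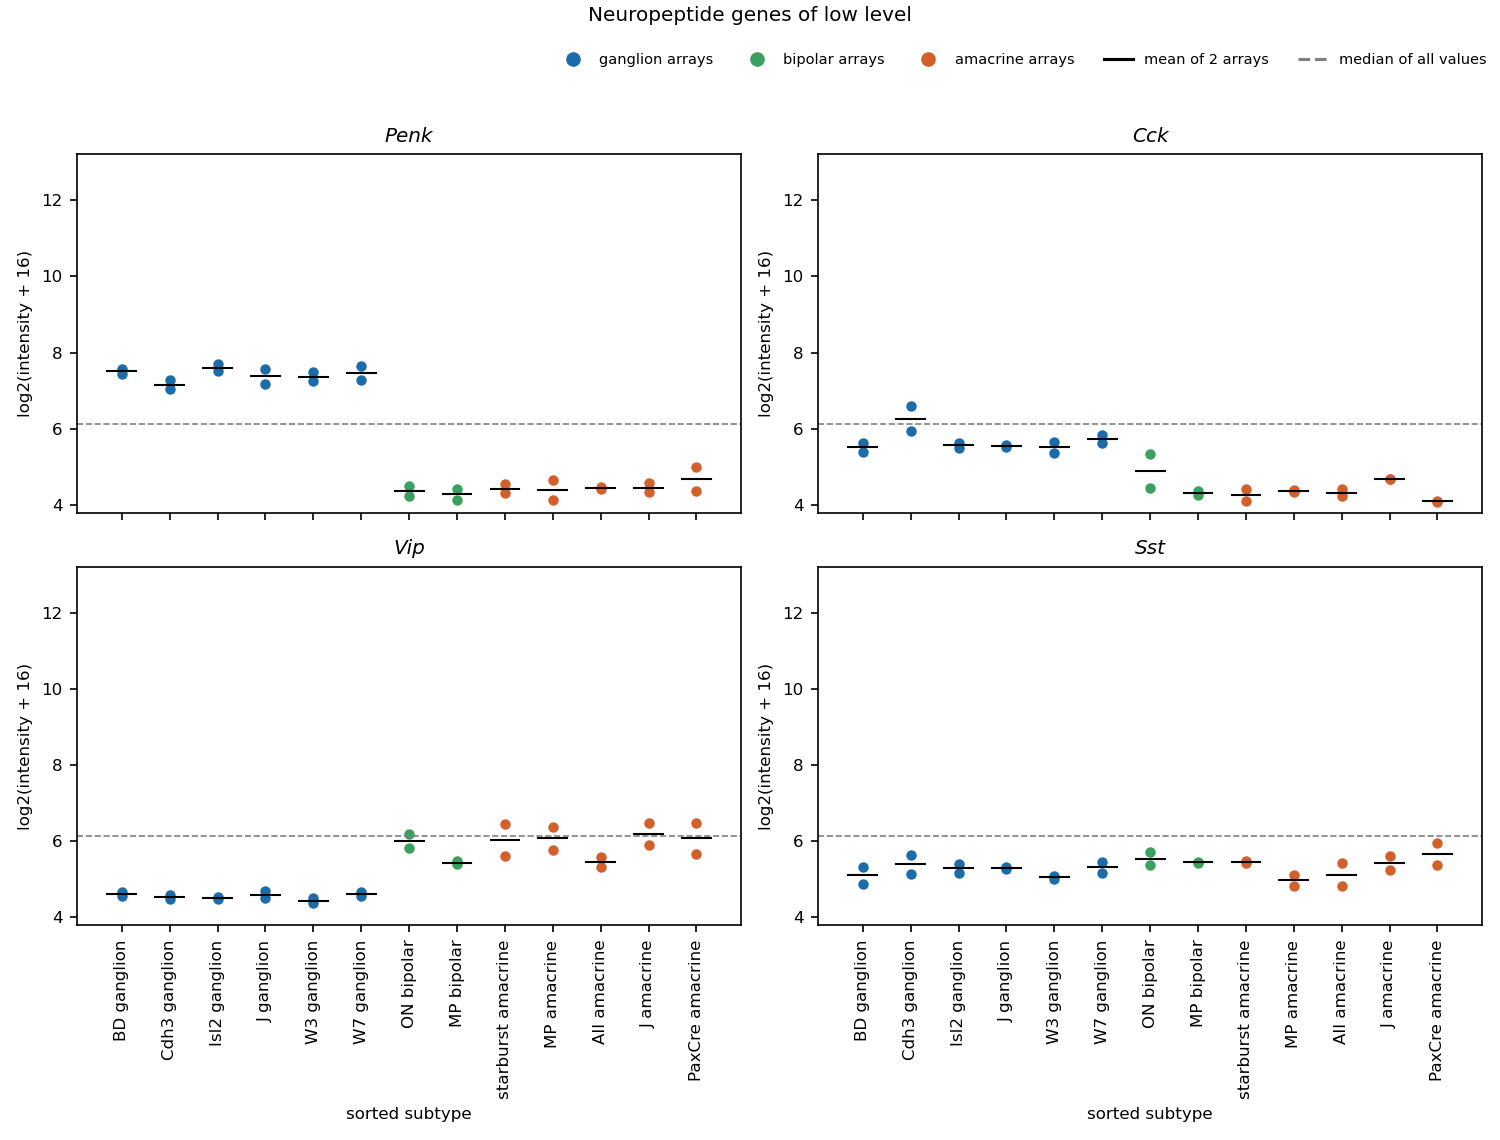
Levels of Penk, Cck, Vip and Sst in each array (points) by sorted subtype, on log2(intensity + 16), with the mean of 2 arrays (bar) and the median of all values (dashed line, 6.14). Penk stands at 7.03 to 7.69 on the ganglion cell arrays and at no more than 4.9997 on the others, and Vip is lower on the ganglion cell arrays.

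Of the 12 neighbouring pairs in the order of the 13 subtype levels, few were apart in every array. For Tac1, Cartpt and Gal 5 pairs were apart, for Crh 4, for Pnoc and Cck 3, for Npy and Vip 2, for Penk 1 and for Sst 0. Penk had its single gap between the lowest ganglion cell subtype and PaxCre amacrine cells. The highest level was in starburst cells for Npy and Pnoc, in W7 for Crh and Gal, in Cdh3 for Tac1 and Cck, in BD for Cartpt and in Isl2 for Penk. For Vip the top was J amacrine and for Sst PaxCre, each overlapping with the next subtype. For Tac1, Cdh3 at 12.18 and 12.42 overlapped with PaxCre amacrine cells at 12.05 and 12.18, and for Penk, Isl2 at 7.50 to 7.69 overlapped with BD at 7.44 to 7.58. In Gal, W7 at 9.98 and 9.59 overlapped with Cdh3 at 9.83 and 9.59.

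Counting precursors with both arrays above the median gave each subtype a set, which depends on the brightness of the probe sets. The share of all genes that pass the same rule in each subtype was not counted. The numbers therefore list which precursors passed and do not show whether a subtype is rich in them. Isl2 and W3 ganglion cells each had 6 of 10, namely Tac1, Crh, Gal, Penk, Cartpt and Npy. BD and W7 had 5, and Cdh3 and J ganglion cells had 4. PaxCre amacrine cells had 5, namely Tac1, Crh, Cartpt, Npy and Gal. Starburst cells had Npy, Pnoc and Gal, and J amacrine cells had Tac1, Npy and Gal. MP and AII amacrine cells, ON bipolar cells and MP-positive bipolars had 0 of 10.

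Between the classes, ganglion cells were higher than amacrine cells for 5 of the 8 tested precursors (Gal, Tac1, Penk, Crh and Cartpt), where 15.8% of all genes tested were higher. They were lower for 3 (Npy, Vip and Pnoc), beside 9.00% of all genes tested. The median difference of the 8 was 2.23, and that of all genes was 0.003. Penk exceeded the median on ganglion cell arrays only and Vip only outside them. Each thus passed the filter through the side on which it was brighter. The precursors were also chosen with earlier results of these data known, so these counts and medians are descriptions. Tac1 averaged 11.23 in ganglion cells and 7.95 in amacrine cells, a difference of 3.28 ± 0.16 (limma adjusted p = 1.75e-12). Crh differed by 2.31 ± 0.22 (adjusted p = 2.99e-08) and Cartpt by 2.14 ± 0.30 (adjusted p = 4.04e-06), and the arrays of the classes overlapped for all 3 genes. Over all genes, 9.39% had every ganglion cell array above every other array, as Gal and Penk did. Every ganglion cell array lay below all others for 6.25%, as for Vip.

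The lower values of Npy and Pnoc rested on starburst cells. Npy differed by -1.81 ± 0.35 (limma adjusted p = 0.000177), and by -0.77 (adjusted p = 0.0756) with the starburst subtype left off the amacrine side. Pnoc differed by -1.06 ± 0.11 (adjusted p = 1.61e-07), and by -0.09 (adjusted p = 0.545) without it. Over all settings the lowest adjusted p was 1.08e-09 for Npy and 2.93e-08 for Pnoc. The other 6 calls held without starburst cells, and all 8 held without PaxCre cells. On the columns as deposited, Pnoc differed by -0.64, and the median gene was shifted by 0.52 towards ganglion cells.

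Sums of markers of other cells differed between the classes too, though not every gene of a list ran the same way. The 7 microglia markers summed to 733 to 18455 on ganglion cell arrays, 399 to 1842 on bipolar arrays and 317 to 4598 on amacrine arrays. Of them 4 to 7 exceeded the median on ganglion cell arrays and 2 to 5 on amacrine arrays. Müller glia markers summed to 3122 to 9795 on ganglion cell arrays and 464 to 3996 on amacrine arrays. Apoe (medians 9.30 and 5.47), Clu (9.69 and 7.69), Aqp4 (6.195 and 4.61) and Glul (11.50 and 11.07) were brighter on ganglion cell arrays. Rlbp1 (6.15 and 6.52) and Slc1a3 (5.68 and 6.72) were dimmer there. Vessel markers summed to 257 to 6926 on ganglion cell arrays and 215 to 921 on amacrine arrays. Median levels on ganglion and amacrine arrays were 10.73 and 5.53 for Rgs5, 5.23 and 4.09 for Pecam1, and 7.27 and 7.87 for Kdr. Cdh5 had 6.03 and 5.96, and Cldn5 had 5.318 and 5.414, in the same order. Cdh3 replicate 2 had the lowest microglia sum of the ganglion cell arrays and a vessel sum of 1891, above every amacrine array. Its levels were 9.59 for Gal, 12.42 for Tac1, 7.03 for Penk, 4.53 for Crh and 5.54 for Cartpt. For Penk, Crh and Cartpt these were the lowest of all ganglion cell arrays. W3 replicate 2 had the next lowest microglia sum, 1120, and the lowest vessel sum, 257. Its levels were 11.36 for Tac1, 9.51 for Crh and 6.65 for Cartpt. W3 replicate 1, with a microglia sum of 4473, had 11.57, 9.68 and 7.28 in that order. Cdh3 replicate 1, with a microglia sum of 10431, had 4.75 for Crh. The part of these cells in the ganglion minus amacrine differences of the precursors was not tested.

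Bipolar cells were lower than amacrine cells for 5 of the 8 precursors, where 5.70% of all genes were lower. They were higher for 0, beside 4.67% of all genes, and 0 of the 8 were higher at an unadjusted p under 0.05 in limma. The limit set by the filter and by the choice of genes holds here too, so the counts are descriptions. The calls were Npy (-2.98 ± 0.48, adjusted p = 0.000108), Tac1 (-2.24 ± 0.22, adjusted p = 2.5e-07), Cartpt (-1.35 ± 0.41, adjusted p = 0.016), Crh (-1.05 ± 0.30, adjusted p = 0.0117) and Pnoc (-1.04 ± 0.16, adjusted p = 5.12e-05). All 4 bipolar arrays lay within the amacrine range for Crh, Cartpt, Npy and Tac1. With PaxCre cells left off the amacrine side, 3 calls remained: Crh differed by 0.12 (adjusted p = 0.818) and Cartpt by -0.78 (adjusted p = 0.184). Without starburst cells, Pnoc differed by -0.07 (adjusted p = 0.809). Leaving out ON bipolar replicate 1 also brought the count to 3, through Crh and Cartpt. The Crh call was also lost without AII replicate 1 or PaxCre replicate 2, the Cartpt call without MP-positive bipolar replicate 2, and the Pnoc call without starburst replicate 2 or ON bipolar replicate 2. Over all settings the adjusted p ran to 0.000304 at the lowest for Crh, 0.000627 for Cartpt and 9.61e-06 for Pnoc.

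Between the bipolar sorts limma gave 0 calls among the 8 precursors, where 2.59% of all genes were higher and 2.44% lower in ON bipolar cells. At an unadjusted p under 0.05, 2 were higher, Tac1 and Gal, and 0 lower. Tac1 had 6.47 and 5.80 in ON bipolar cells, against 5.28 and 5.30 in MP-positive bipolars, a difference of 0.85 ± 0.37 (adjusted p = 0.251). Gal had 5.44 and 5.81 in ON bipolar cells, against 5.35 and 4.65 in MP-positive bipolars, a difference of 0.63 ± 0.22 (adjusted p = 0.115).

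Within the amacrine class, 18 of 40 tests of a precursor in a subtype against the other 4 were calls, 6 higher and 12 lower. Over all genes 10.02% of such tests were calls. The 5 comparisons share arrays, so a precursor bright in 1 subtype lowers the others by construction. Pnoc passed the filter only through starburst and Cdh3 arrays, and the counts are descriptions. PaxCre cells were higher for 3 of 8 (Crh, Tac1 and Cartpt), beside 4.97% of all genes, and lower for 1, Pnoc, beside 1.56%. Starburst cells were higher for 2 (Npy and Pnoc), beside 5.32% of genes, and lower for 1, Tac1, beside 5.61%. J cells were higher for Tac1, beside 2.80%, and lower for Pnoc and Crh, beside 3.26%. AII cells were lower for 5 (Npy, Tac1, Cartpt, Crh and Pnoc), beside 10.5%, and higher for 0, beside 5.73%. MP cells were lower for 3 (Tac1, Crh and Pnoc), beside 5.26%, and higher for 0, beside 5.13%. In both of these subtypes 0 precursors were higher at an unadjusted p under 0.05 in limma. The Crh call in MP cells and the Cartpt call in AII cells were lost without either of their own replicates. The Crh call was lost in AII cells without AII replicate 2 and in J cells without J replicate 2. The Pnoc call was lost in PaxCre cells without PaxCre replicate 1, and in J cells without starburst, AII, J or PaxCre replicate 2 or MP replicate 1.

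Within the ganglion cell class, 10 of 48 such tests were calls, 5 higher and 5 lower, where 1.17% of tests over all genes were. These comparisons share arrays too, so a precursor bright in 1 subtype lowers the others by construction. The limit set by the filter applies to these counts as well. Of the 10 calls, 5 were for Crh. Cdh3 cells were higher for Pnoc and Tac1, beside 1.26% of genes, and lower for Crh and Cartpt, beside 0.824%. BD cells were higher for Cartpt, beside 0.315%, and lower for Crh, beside 0.179%. W7 cells were higher for Crh, beside 0.681%, and lower for Tac1, beside 0.688%. W3 cells were higher for Crh, beside 0.344%, and lower for 0, beside 0.459%, with 2 lower at an unadjusted p under 0.05. J cells were lower for Crh, beside 0.416%, and higher for 0, beside 1.63%, with 0 higher at an unadjusted p under 0.05. Isl2 cells had 0 calls by limma, beside 0.194% of genes higher and 0.0287% lower. At an unadjusted p under 0.05, 3 precursors were higher there, Crh, Tac1 and Cartpt, and 0 lower.

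**Figure D4:**
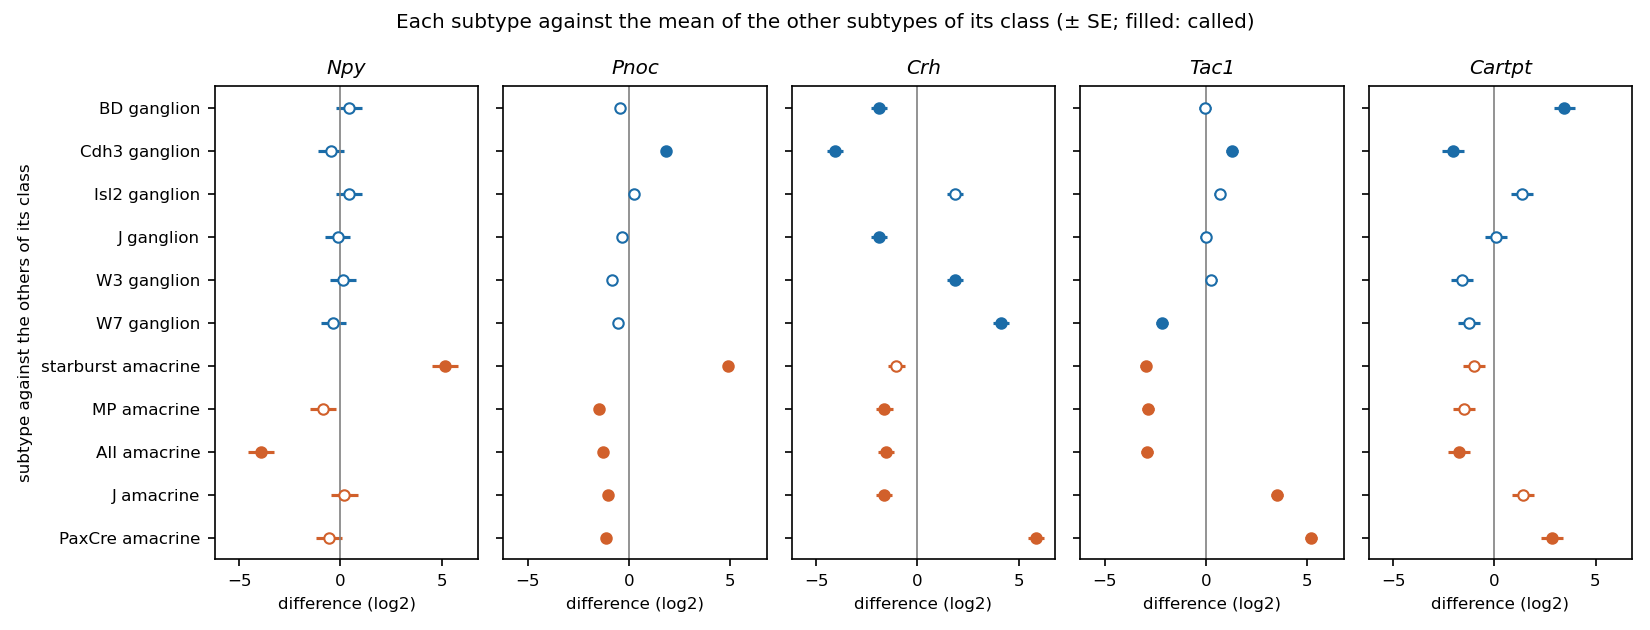
Difference of each ganglion cell (upper 6) and amacrine subtype (lower 5) from the mean of the other subtypes of its class, in log2 units with the standard error, for 5 precursors. Filled points were called. Crh (5.87) and Tac1 (5.20) in PaxCre cells and Npy (5.16) and Pnoc (4.88) in starburst cells lie far to the positive side, in an order that changes with the pseudocount.

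The receptors and binding proteins of these peptides gave 24 measured genes of 25 listed, of which 15 passed the filter and 11 differed across subtypes, where 71.3% of all genes tested did. Ganglion cells were higher than amacrine cells for 3 of the 15 and lower for 3, beside 15.8% and 9.00% of all genes tested, and the median difference was 0.03. Tacr3, the neurokinin B receptor, had the widest range, 6.33. It had 7.19 and 7.22 in ON bipolar cells, against 12.03 and 12.13 in MP-positive bipolars. The ON bipolar arrays were far lower, with a difference of -4.88 ± 0.33 (limma adjusted p = 1.74e-08). Tacr1, the receptor of substance P, was below the filter, with subtype means spanning 0.38.

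Crhbp, which binds corticotropin-releasing hormone and limits its action, had 8.11, 8.99 and 10.28 on ganglion cell arrays, against 5.83, 6.17 and 6.37 on amacrine arrays. The classes did not overlap, with a difference of 2.96 ± 0.08 (adjusted p = 1.47e-15). BD cells had 10.28 and 10.17, against 8.11, 8.85 and 9.91 in the other ganglion cells, a difference of 1.33 ± 0.15 (adjusted p = 0.000178). Of the receptors of Crh, Crhr2 was lower in ganglion cells (-2.24 ± 0.10, adjusted p = 3.6e-13), and Crhr1 was not called (-0.05 ± 0.10, adjusted p = 0.669).

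Oprl1, the nociceptin receptor, had 4.75 to 5.48 on the 4 bipolar arrays, against 5.75, 7.44 and 8.20 on amacrine arrays. Bipolar cells lay below every amacrine array, with a difference of -2.12 ± 0.14 (adjusted p = 2.15e-09). Starburst cells, the brightest for Pnoc, had 7.34 and 7.35 and lay within the range of the other amacrine arrays, 5.75 to 8.20. Npy5r, a receptor of neuropeptide Y, had 5.77, 7.58 and 9.02 in ganglion cells, against 4.98, 5.62 and 6.23 in amacrine cells. The difference was 1.75 ± 0.20 (adjusted p = 3.88e-07), with BD cells highest at 7.96 and 9.02 but not called against the other ganglion cells (1.31 ± 0.36, adjusted p = 0.144). Npy1r was not called across the subtypes (F test adjusted p = 0.123).

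Among the other receptors, Oprk1 was higher in ganglion cells by 2.11 ± 0.10 (limma adjusted p = 1.12e-12), and the enkephalin receptors Oprm1 and Oprd1 gave no call, Oprd1 being below the filter. Vipr2 was lower in ganglion cells (-1.99 ± 0.15, adjusted p = 7.25e-10), as was Vip, whose peptide it binds. Vipr1, below the filter, ran the other way, with 4.92 to 5.75 on ganglion cell arrays and 4.09 to 4.84 on amacrine arrays. Galr2 was lower in ganglion cells (-1.26 ± 0.13, adjusted p = 5.8e-08), and ganglion cell arrays had 4.09 to 4.17, at the floor. MP amacrine cells had 8.13 and 6.69 for Galr2 and were higher than the other amacrine subtypes by 2.57 ± 0.23 (adjusted p = 3.85e-07). Sstr2 was higher in PaxCre cells by 2.30 ± 0.20 (adjusted p = 1.86e-07) and in J amacrine cells by 1.83 ± 0.20 (adjusted p = 5.95e-06).

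Genes of prohormone processing and dense-core vesicles gave 16 of 17 measured, all 16 tested and 13 different across subtypes, where 71.3% of all genes tested differed. Ganglion cells were higher than amacrine cells for 1 of 16, beside 15.8% of all genes, and lower for 3, beside 9.00%. Vgf, a granin-like precursor, had 7.89, 9.21 and 10.12 in ganglion cells, against 4.18, 5.39 and 7.496 in amacrine cells, a difference of 3.37 ± 0.18 (adjusted p = 8.38e-12). Pam, the enzyme that amidates the ends of many peptides, ran the other way, with 5.96, 6.27 and 6.86 in ganglion cells, against 7.72, 10.73 and 10.85 in amacrine cells. Its classes did not overlap, with a difference of -3.87 ± 0.12 (adjusted p = 3.5e-15). The other 2 lower genes were Scg2 and Chga, members of the granin family, Chga being named after its values were seen.

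Starburst cells were bright for 2 secretogranins. Scg2 had 12.18 and 12.40 in starburst cells, against 6.39, 8.49 and 10.63 in the other amacrine cells, a difference of 3.72 ± 0.37 (limma adjusted p = 4.41e-07). Scg3 had 12.51 and 12.77, against 9.42, 11.22 and 11.75, higher by 1.71 ± 0.21 (adjusted p = 6.48e-06). Pam had 8.64 and 7.72 in starburst cells, against 10.02, 10.74 and 10.85 in the other amacrine cells, a difference of -2.46 ± 0.22 (adjusted p = 1.11e-07).

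A list of 32 other neuropeptide precursors gave 25 measured genes, 14 tested and 9 different across subtypes, where 71.3% of all genes tested differed. Ganglion cells were higher than amacrine cells for 2 of 14, Adcyap1 and Nts, beside 15.8% of all genes, and lower for 4, beside 9.00%. The lower genes were Grp, Cort, Npff and Pmch, of which the last 3 were named after their values were seen. The median difference was -0.23. Adcyap1, the PACAP precursor, had 7.27, 8.15 and 8.57 in ganglion cells, against 4.09, 5.13 and 5.67 in amacrine cells, a difference of 3.004 ± 0.10 (adjusted p = 1.09e-14). Nts, the neurotensin precursor, divided the ganglion cells. W7 cells had 9.38 and 8.79, higher than the other ganglion cells by 2.11 ± 0.28 (adjusted p = 0.000224). Cdh3 cells, at 5.93 and 4.73, were lower (-2.39 ± 0.28, adjusted p = 2.92e-05), and so were J cells, at 5.32 and 5.72 (-2.15 ± 0.28, adjusted p = 0.000484).

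Pdyn, the prodynorphin gene, had 7.05 and 7.55 in starburst cells, against 4.63, 5.38 and 5.84 in the other amacrine cells. Starburst cells were higher by 1.94 ± 0.19 (limma adjusted p = 3.71e-07), on a low level. Grp, the gastrin-releasing peptide gene, had 7.62 and 7.51 in PaxCre cells and was higher there by 1.82 ± 0.28 (adjusted p = 0.000183). In ON bipolar cells Grp had 4.77 and 4.80, against 6.43 and 7.63 in MP-positive bipolars, a difference of -2.25 ± 0.35 (adjusted p = 0.000317).

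**Figure D5:**
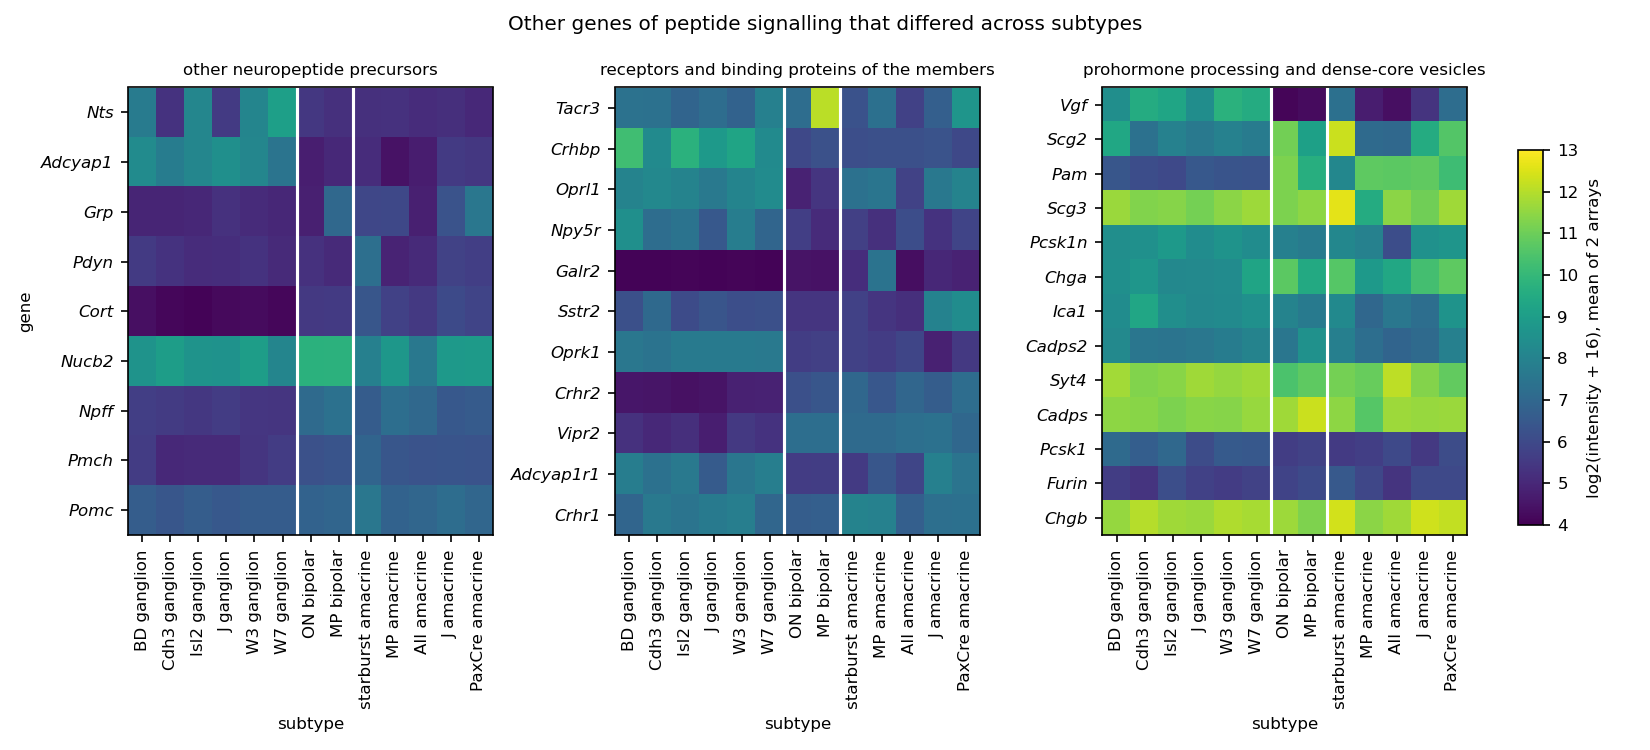
Heat maps of the genes in 3 lists that differed across subtypes, other neuropeptide precursors, receptors and binding proteins, and processing genes, by subtype (columns, mean of 2 arrays) on log2(intensity + 16). White lines part ganglion, bipolar and amacrine subtypes. Tacr3 is brightest in MP-positive bipolars (12.08), Scg2 in starburst cells (12.29) and Crhbp in BD cells (10.23).

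The genes whose levels ran most like each precursor were taken by Pearson correlation over the 13 subtype means, as a description. Npy was nearest to Neurog2 (r = 0.948), Dtx4 (r = 0.937) and Cftr (r = 0.923). Pnoc was nearest to Gng7 (r = 0.961), Kcnf1 (r = 0.949) and Slc4a5 (r = 0.942). Crh had lower likeness, with Prdm16 (r = 0.891), 4833418N02Rik (r = 0.884) and Cdh4 (r = 0.846). Tac1 ran with Cacna1e and Dcx (both r = 0.949) and AI593442 (r = 0.943). Cartpt ran with Bcl11b (r = 0.870), Ptgir (r = 0.866) and Dnah7a (r = 0.856). For Gal the nearest were Il6st (r = 0.992), Tmem74b and Aar2 (both r = 0.990), and for Penk they were Gm10857, Nkg7 and Cldn9 (all r = 0.998). For both, the step between ganglion cells and the rest, seen in 9.39% of genes tested, is part of the correlation.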

How the data were processed

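RNA from 26 sorted samples was measured on 26 arrays, 2 per subtype, after 2 rounds of linear amplification with biotin labelling, per the labels' protocols. The deposited values are probe set intensities on a linear scale. For the summarization software, background correction and scaling behind these intensities, the authors' choice is not given in the sources used here. Because the deposited medians differed between the ganglion cell arrays and the rest, log2(intensity + 16) was quantile normalized over the 26 arrays. The added 16 makes the differences of dim genes smaller than their true ratios. Of 45037 probe sets other than the 64 controls, 34945 had a single gene symbol, 932 had several and 9160 had none. The brightest probe set stood for a gene.

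One linear model with a mean for each of 13 subtypes was fitted in limma 3.58.1 (R 4.3.3) over the 13951 genes with at least 2 arrays above the overall median, with 13 residual degrees of freedom. Classes were compared as means of subtype means with equal weight, and each subtype with the mean of the others of its class, which gave 14 comparisons. p-values were adjusted by the Benjamini-Hochberg method over all tested genes within each comparison. The replicates came from different litters. With 2 arrays per subtype, the number of arrays limits precision, and the spread is pooled over subtypes.

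The members and the gene lists were chosen with earlier results of these data known. Of each list, the genes with the 4 widest ranges among those that differed across subtypes are named, with some of the receptors of the 10 precursors. Likeness is the Pearson correlation with genes that span at least 2 log2 units, the 3 highest being named. Alternatives were the normalization, pseudocounts of 1 and 64, the filter, the choice of probe set, array weights, the replicate number as a block and leaving out each array. Taking the starburst or the PaxCre subtype off the amacrine side was added after seeing the data. Same-numbered arrays deviated together in some pairs of subtypes only (78 pairs, r of -0.23 to 0.37, median 0.03, 21 over 0.1), so the numbers were not taken to pair samples.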

Additional observations from a re-analysis of the deposited data

How the results depend on the processing

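Of 1804 values of the 8 tested precursors under 11 planned settings, 2 added ones and 26 single arrays left out, 1730 kept their direction and their side of the threshold, 73 lost the call and 1 reversed: Crh in bipolar against amacrine cells, 0.12 without the PaxCre subtype. The values cover only results called in the main setting, so calls that arose under another setting are not among them. Leaving out an array that is not in a comparison cannot change its difference. The 1730 is therefore not a measure of how stable the calls are. Under the 35 to 38 settings that gave a value, no call was lost for Npy and Pnoc in starburst cells, Crh in PaxCre, W7 and Cdh3 cells, Tac1 in PaxCre, J amacrine, W7 and starburst cells, Pnoc in Cdh3 cells, or Gal, Penk, Tac1, Crh and Cartpt between ganglion and amacrine cells. With the second brightest probe set Tac1 was below the filter, and with the filter at the 75th percentile Penk and Vip were. Those settings gave no value for these genes, so they are neither among the 1804 values nor counted as lost calls. None of the Tac1 calls was made with its second probe set. A pseudocount of 1 gave 6 precursor calls among ganglion subtypes, against 10: 5 of the 10 were kept, and Pnoc in W3 cells was added. Among amacrine subtypes it gave 22, against 18, adding Gal in starburst, MP and AII cells and Cartpt in MP cells. A pseudocount of 64 gave 2 precursor calls between bipolar and amacrine cells, against 5, with 2096 genes called between ganglion and amacrine cells, against 3456, and 4628 calls within amacrine cells, against 6991. With pseudocounts of 1 and 64, Pnoc in starburst cells differed by 5.33 and 4.02, Tac1 in PaxCre cells by 5.62 and 4.47, and Gal between ganglion and amacrine cells by 3.81 and 2.69. A filter at the 75th percentile gave 2252 genes between ganglion and amacrine cells. Without the PaxCre subtype, 3 precursors were called between bipolar and amacrine cells. Leaving out each array gave 9521 to 10469 genes that differed across subtypes (8 precursors in each), 3424 to 3528 between ganglion and amacrine cells (8), 1393 to 1573 between bipolar and amacrine cells (3 to 5), 533 to 756 between the bipolar sorts (0), 6268 to 7652 calls within amacrine cells (15 to 19 of precursors) and 740 to 1872 within ganglion cells (7 to 11). The highest of these, 1872, came without BD replicate 1, against 979. The columns as deposited raised the share of higher calls between ganglion and amacrine cells to 85.5%, against 63.7%. With the replicate block, 3456 genes and 8 precursors were called between ganglion and amacrine cells, 1446 and 5 between bipolar and amacrine cells, 7049 and 20 within amacrine cells and 1018 and 10 within ganglion cells, no count moving by over 1.5 times. Array weights called 17 genes in BD cells, of which 88.2% were higher, against 69 and 63.8%, and 147 genes in Isl2 cells, 64.6% higher, against 31 and 87.1%. In W7 cells 62.2% of calls were higher with the median over probe sets and 66.4% with the second brightest probe set, against 49.7%, and in MP amacrine cells 38.7% with arrays shifted to 1 median, against 49.4%. Signal limits Sst, Cck, Vip and the low side of Penk. Sst, and Penk outside the ganglion cells, lay wholly under the overall median, which Vip exceeded on 5 arrays and Cck on 1.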
